A study of Mus musculus with 8 samples.

Results

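The miR-29 family was represented by 7 of the 697 mature miRNAs counted in the small RNA libraries, chosen by name as both strands of miR-29a, miR-29b and miR-29c. The libraries came from isolated cardiomyocytes of male mice, 4 after a sham operation (Sham) and 4 after transverse aortic constriction (TAC), a narrowing of the aorta that puts the left ventricle under pressure overload. Surgery was done at 2 months of age, for TAC under ketamine and xylazine, the cells were taken 14 weeks later by Langendorff perfusion, and each library came from the cells of 1 heart. The methods also speak of mice aged 14 weeks, and the time is taken here as counted from surgery. The strain was not given in the sources used here. TAC at this time is used as a model of heart failure, and the comparison asks which miRNAs differ in the cardiomyocytes of such hearts.

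A miRNA hairpin yields a strand from each arm, and the strand loaded into Argonaute guides repression of mRNAs that pair with its seed, bases 2 to 8. In the miR-29 family the 3p strands are the guides, and the 5p strands are the passengers that are mostly degraded. miR-29 is known for repressing mRNAs of the extracellular matrix, among them fibrillar and basement membrane collagens, elastin and fibrillin, and in the heart it is known from studies of fibrosis.

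All 7 members matched a RefSeq mature sequence (GRCm38.p6). The 3 guide strands are shown first because they share their seed, printed in capitals, and differ only behind it.
mmu-miR-29a-3p: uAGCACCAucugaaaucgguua
mmu-miR-29b-3p: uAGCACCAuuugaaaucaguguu
mmu-miR-29c-3p: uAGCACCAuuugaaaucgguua

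Among the mature miRNAs of the RefSeq table, the seed AGCACCA was held by these 3 strands and no other. Counted from 1 at the 5′ end, miR-29a-3p differed from miR-29c-3p by C10U alone, 1 of 22 positions. miR-29a-3p differed from miR-29b-3p by C10U, G18A, U21G and A22U, and miR-29b-3p is 1 base longer. Positions 18 to 23 of miR-29b-3p read AGUGUU, the tail known from work on nuclear import of this miRNA. Of 1679 mature miRNAs in the table, 2 end in these letters and 12 hold them anywhere.

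The 4 passenger strands are shown because, unlike the guides, no seed (capitals) is shared between them. The seeds of miR-29b-1-5p and miR-29b-2-5p overlap in their letters without being the same, and miR-6338 holds the seed of miR-29b-2-5p.
mmu-miR-29a-5p: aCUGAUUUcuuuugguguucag
mmu-miR-29b-1-5p: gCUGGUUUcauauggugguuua
mmu-miR-29b-2-5p: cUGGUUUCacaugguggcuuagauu
mmu-miR-29c-5p: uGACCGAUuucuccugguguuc

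The family is encoded by 4 hairpins at 2 loci. Mir29a (chr6:31062660-31062747) and Mir29b-1 (chr6:31063023-31063093) lie on the minus strand of chromosome 6 with 275 bases between them. In GENCODE vM21 no other gene overlaps Mir29a, and Mir29b-1 shares 2 bases with exon 1 of the lincRNA Gm27019. Mir29b-2 (chr1:195037040-195037120) and Mir29c (chr1:195037547-195037634) lie on the plus strand of chromosome 1 with 426 bases between them. Both sit within exon 3 of a retained-intron transcript of the noncoding gene A330023F24Rik, and opposite exon 11 of the minus-strand gene Cd46, in its 3′ UTR. The mature miR-29b-3p of both loci has the same sequence, so its counts cannot be divided between them, whereas miR-29b-1-5p and miR-29b-2-5p are told apart by sequence.

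The libraries held 4005668 to 7798943 miRNA counts, and every TAC library was deeper than every Sham library. Levels below are counts per 1000000 miRNA counts of the library (CPM), unless they are called reference-scaled. Reference scaling follows the normalization of the study, which used miR-126a-3p and miR-19b-3p as unaltered miRNAs, and divides the CPM of all TAC libraries by 0.537. This moves every log2 fold change up by 0.90, so the direction of a TAC effect depends on the scaling, and both scales are given. By library total miR-126a-3p, an endothelial miRNA, averaged 39017 CPM in Sham and 22483 in TAC, and miR-19b-3p 213.1 and 106.6 CPM.

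By library total, the endothelial list alone of 6 marker lists had summed levels that did not overlap between the groups, with TAC below. Of single miRNAs with a mean above 10 counts, 19.6% of 409 had TAC below without overlap on that scale. Reference scaling raises all TAC sums by the same factor, and the overlap of the lists on that scale was not examined. The 4 cardiomyocyte markers, led by miR-1a-3p, were all detected and summed to 160680 to 198100 CPM in Sham and 194380 to 245840 in TAC. The 2 endothelial markers, led by miR-126a-3p, summed to 49248 to 72051 CPM in Sham and 29274 to 34557 in TAC, and the larger of the 2 is also a reference of the scaling. The 5 fibroblast and smooth muscle markers, led by miR-143-3p, summed to 41702 to 49646 and 36697 to 43821 CPM. The 2 erythroid markers, led by miR-144-3p, summed to 413.3 to 1482 and 40.9 to 541.0 CPM, the 4 leukocyte markers, led by miR-150-5p, to 1195 to 2360 and 936.8 to 1332 CPM, and the 5 epithelial markers, led by miR-200a-3p, to 242.2 to 397.6 and 221.4 to 1399 CPM, the last value being TAC4. No marker of any list was at 0 in all libraries. The part of these cell types in the miR-29 levels was not tested, and in bulk libraries fewer cells of a type and less RNA per cell cannot be told apart.

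miR-29a-3p carried most of the family. It ranked 20 of 697 by total count, and its levels were 18754, 11960, 13378 and 11424 CPM in the 4 Sham libraries and 12013, 10904, 9576 and 9604 CPM in the 4 TAC libraries. Sham1 stood above the other 7 libraries, and the groups overlapped. The mean was 13879 ± 3353 CPM in Sham and 10524 ± 1170 in TAC (SD, n = 4 in each group), and an exact permutation test on log2 CPM gave p = 0.0857 (two-sided). On the reference scale the TAC libraries reached 22377, 20312, 17838 and 17892, a mean of 19605 ± 2179 (SD, n = 4). Of these, 2 still lay below Sham1.

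miR-29c-3p, which differs from miR-29a-3p at 1 base, was found at 882.6, 635.7, 652.3 and 575.4 CPM in Sham and at 624.5, 594.2, 545.7 and 515.8 CPM in TAC. Sham1 was again the highest library. The group means were 686.5 ± 134.8 and 570.0 ± 48.6 CPM (SD, n = 4 in each group; exact permutation p = 0.114). Reference-scaled, the TAC libraries held 1163, 1107, 1017 and 960.9, all above the Sham libraries.

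miR-29b-3p, the strand with the distinct tail, behaved differently in Sham1. Its levels were 272.5, 278.7, 320.6 and 286.6 CPM in Sham and 370.8, 298.8, 253.5 and 252.8 CPM in TAC. Here Sham1 was the lowest Sham library, and TAC1 was the highest of all 8. The means by library total were 289.6 ± 21.5 and 293.9 ± 55.6 CPM (SD, n = 4 in each group; exact permutation p = 1). Reference-scaled, the TAC libraries held 690.7, 556.5, 472.2 and 470.9, all above the Sham libraries. Without overlap on that scale were 2 of the 4 members with a mean above 100 counts, against 54.7% of all 223 such miRNAs with TAC above.

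Among the passenger strands miR-29b-2-5p was the most abundant, at 63.5, 22.99, 25.7 and 25.96 CPM in Sham and 27.1, 20.003, 17.5 and 16.6 CPM in TAC. Sham1 stood far above the other libraries, and the group means were 34.5 ± 19.4 and 20.3 ± 4.73 CPM (SD, n = 4 in each group; exact permutation p = 0.114). Its locus mate on the same hairpin pair, miR-29c-5p, had 17, 21, 11 and 13 counts in Sham and 15, 15, 20 and 10 in TAC. These were 3.26 ± 0.733 and 2.30 ± 0.794 CPM (SD, n = 4 in each group; exact permutation p = 0.143), with overlap.

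miR-29a-5p had 12, 22, 27 and 8 counts in Sham and 2, 10, 10 and 4 counts in TAC, although the TAC libraries were deeper. This was 3.54 ± 1.57 CPM in Sham and 0.944 ± 0.579 CPM in TAC (SD, n = 4 in each group). By library total the highest TAC value was under the lowest Sham value, as it was for 19.6% of the 409 miRNAs with a mean above 10 counts. The exact permutation test gave p = 0.0286, the smallest value that 4 against 4 libraries can give. On the reference scale, recomputing the factor for every arrangement of the libraries, the exact permutation p was 0.114.

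miR-29b-1-5p was near the limit of detection, with 0, 9, 1 and 1 counts in Sham and 3, 1, 0 and 3 in TAC. The 0 counts of Sham1 and TAC3 allow up to 0.648 and 0.473 CPM, from 3 counts of the library, for counting error only. Of the 1202 miR-29b 5p counts in the 8 libraries, 98.5% were miR-29b-2-5p and 18 counts were miR-29b-1-5p.

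In the order of CPM the family ran miR-29a-3p, miR-29c-3p, miR-29b-3p, miR-29b-2-5p, miR-29a-5p with miR-29c-5p, and miR-29b-1-5p. The first 4 did not overlap with their neighbours in any library. miR-29a-5p and miR-29c-5p exchanged places between libraries, and miR-29b-1-5p reached above miR-29a-5p in TAC1 alone.

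**Figure D1:**
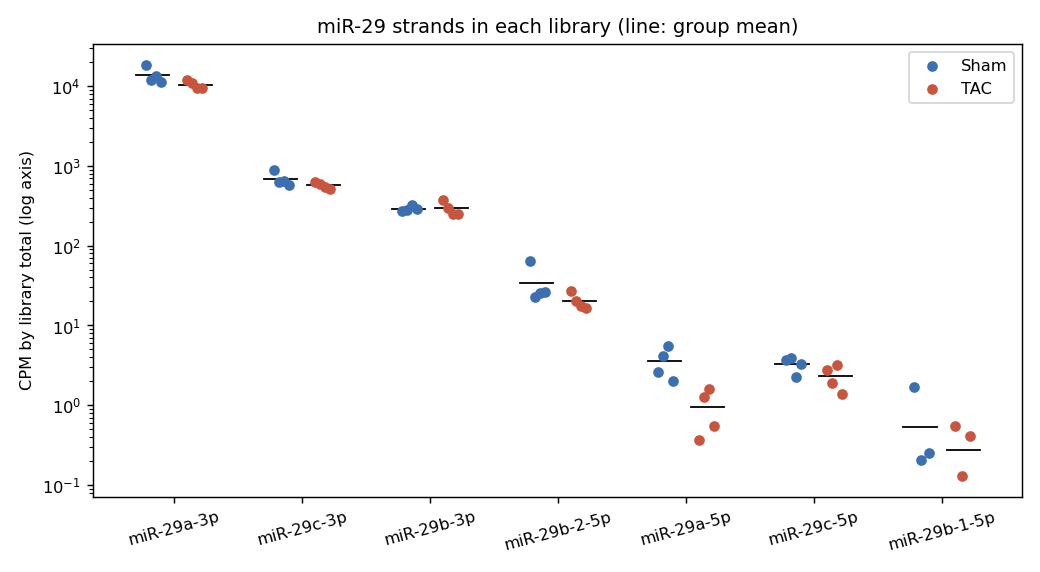
Level of each miR-29 strand in CPM by library total (log axis), with 1 point for each library, blue for Sham and red for TAC, and a line at the group mean. Levels run from 18754 CPM for miR-29a-3p in Sham1 to under 1 CPM, Sham1 lies highest for miR-29a-3p, miR-29c-3p and miR-29b-2-5p, and the 2 libraries with 0 counts of miR-29b-1-5p have no point.

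In edgeR's quasi-likelihood test with reference scaling and Benjamini-Hochberg adjustment over 223 miRNAs, the 3 guide strands rose in TAC, a direction that turned for miR-29a-3p and miR-29c-3p with library totals and with TMM. miR-29b-3p rose by 0.92 on the log2 scale (SE 0.16, adjusted p = 0.00105), a fold change of 1.89. miR-29c-3p rose by 0.63 (SE 0.16, adjusted p = 0.00640), and miR-29a-3p rose by 0.50 (SE 0.16, adjusted p = 0.0238). The passenger miR-29b-2-5p differed by 0.13 (SE 0.35, adjusted p = 0.759). With an adjusted p below 0.05 these were 3 of 4 tested members, beside 63.7% of all tested miRNAs higher in TAC. With a fold change above 1.7 in addition, miR-29b-3p was the only member called, 1 of 4, beside 36.8% of all tested miRNAs. With so few members, these shares stood near the background.

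These edgeR p-values took the factor as known and leave out the spread of the reference miRNAs between libraries. The permutation test that recomputes the factor for each of the 70 arrangements gave an exact permutation p of 0.0286 for miR-29b-3p, 0.143 for miR-29c-3p and 0.171 for miR-29a-3p (two-sided). In edgeR with a reference factor for each library, miR-29b-3p passed (adjusted p = 0.00889), and miR-29c-3p (0.0923) and miR-29a-3p (0.209) did not. In edgeR miR-29a-3p no longer had an adjusted p below 0.05 without Sham2 (adjusted p = 0.117), Sham3 (0.112), TAC1 (0.0660) or TAC2 (0.0677). By contrast, miR-29b-3p and miR-29c-3p kept an adjusted p below 0.05 in edgeR with any single library left out. Without Sham1, miR-29b-2-5p differed by 0.72 with an adjusted p of 0.0160 in edgeR. The factor was recomputed in that fit, and all 4 tested members stood higher than with all libraries. The miRNAs called higher at a fold change above 1.7 went from 82 to 106.

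**Figure D2:**
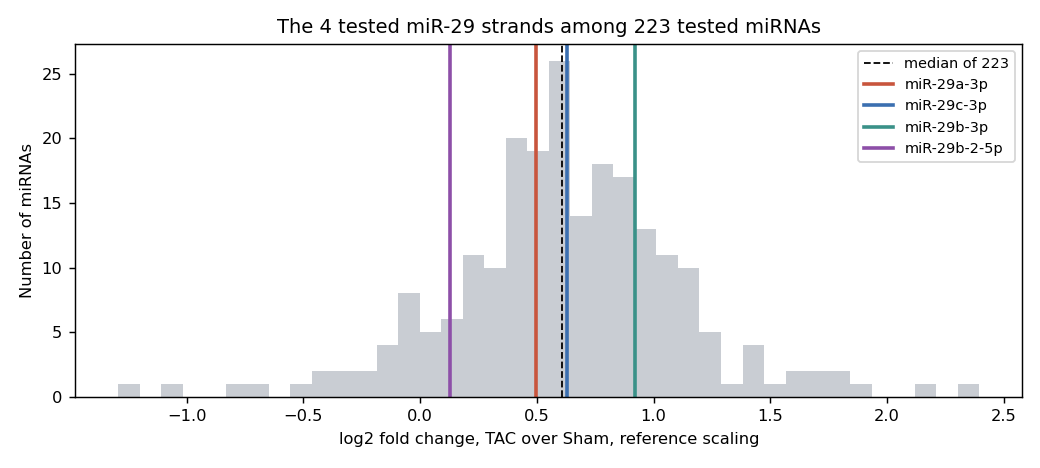
Histogram of the log2 fold change of TAC over Sham with reference scaling for 223 tested miRNAs, with coloured lines at the 4 tested miR-29 strands and a dashed line at the median. miR-29a-3p (0.50) and miR-29c-3p (0.63) stand beside the median of 0.61, miR-29b-3p (0.92) above it and miR-29b-2-5p (0.13) below it; with library totals these 4 values lie 0.90 lower, which turns the sign of all but miR-29b-3p.

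Reference scaling and library totals differ by the same factor for all TAC libraries, so each strand holds the same position among all miRNAs by construction. TMM, with a factor for each library, moved the positions little. Over the 223 tested miRNAs the median was 0.61 on the log2 scale with reference scaling, -0.29 with library totals and -0.08 with TMM, which assumes that most miRNAs do not change. Relative to that median, with reference scaling, miR-29b-3p stood 0.31 higher (rank 55 of 223 from the highest), miR-29c-3p 0.02 higher (rank 105), miR-29a-3p at -0.11 (rank 142) and miR-29b-2-5p at -0.48 (rank 193). With library totals the ranks were identical by construction, and with TMM they were 54, 104, 138 and 193. With a reference factor for each library the log2 fold changes kept this order. They were 0.89 for miR-29b-3p, 0.56 for miR-29c-3p, 0.41 for miR-29a-3p and -0.018 for miR-29b-2-5p.

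By library totals no member of the 4 passed, beside 22% of all tested miRNAs in either direction. The log2 fold changes were 0.02 for miR-29b-3p (adjusted p = 0.917), -0.27 for miR-29c-3p (0.228), -0.40 for miR-29a-3p (0.104) and -0.77 for miR-29b-2-5p (0.129), in edgeR with Benjamini-Hochberg adjustment. With TMM none of the 4 passed either, beside 13.5% of all tested, at 0.23 for miR-29b-3p (adjusted p = 0.348), -0.05 for miR-29c-3p (0.818), -0.18 for miR-29a-3p (0.481) and -0.55 for miR-29b-2-5p (0.294). At an unadjusted p below 0.05 edgeR had 1 of the 4 with library totals, miR-29a-3p, and 0 with TMM. The share of all tested miRNAs at that unadjusted threshold was not counted. DESeq2 with its own size factors had 0 of the 4 at an adjusted p below 0.05, beside 8.52% of all tested miRNAs higher and 9.87% lower.

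The low strands were read from fits with more miRNAs. In the reference-scaled edgeR fit of 409 miRNAs with a mean above 10 counts, miR-29a-5p stood at -0.99 on the log2 scale (SE 0.50, adjusted p = 0.129), rank 406 of 409 from the highest, where the median was 0.59. miR-29c-5p stood at 0.37 (SE 0.36, adjusted p = 0.420). By library totals in the same set miR-29a-5p fell by 1.88 (SE 0.50, adjusted p = 0.0344), beside 13.2% of the 409 miRNAs lower at an adjusted p below 0.05. The strand did not pass without Sham2, TAC1, TAC2 or TAC4 (adjusted p 0.0666 to 0.0712). Without Sham3 its mean was under the minimum, so that no value was had. With TMM the value was -1.55 (adjusted p = 0.0773). With no filter, miR-29b-1-5p stood at -0.15 (SE 1.09, adjusted p = 0.928), which its 18 counts leave undetermined.

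**Figure D3:**
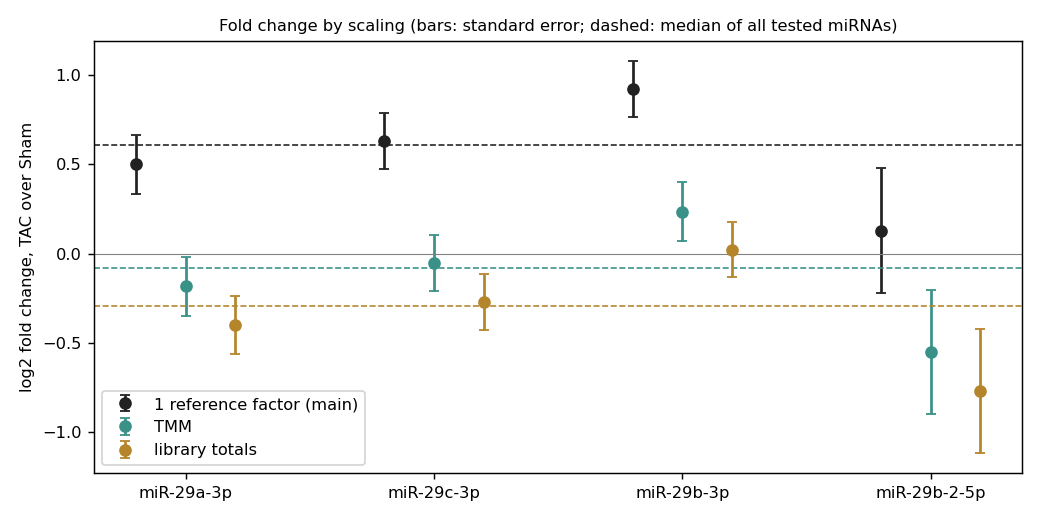
log2 fold change of TAC over Sham for the 4 tested miR-29 strands with the single reference factor, TMM and library totals, with bars of 1 standard error and dashed lines at the median of all 223 tested miRNAs under each scaling. The order of the 4 strands and their distance to the median stay nearly the same (miR-29b-3p 0.31 to 0.32 above it), while the values of miR-29a-3p run from 0.50 to -0.40. Between the single reference factor and library totals this sameness is fixed, because a single factor shifts all values alike.

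Ratios of 2 strands within a library need no scaling between libraries. The log2 ratio of miR-29b-3p to miR-29a-3p was -6.10, -5.42, -5.38 and -5.32 in Sham and -5.02, -5.19, -5.24 and -5.25 in TAC, so all TAC libraries lay above all Sham libraries. The TAC-minus-Sham difference was 0.38 (95% interval 0.073 to 1.08, 1.304-fold, n = 4 each), with an exact permutation p of 0.0286 and 0.114 after Benjamini-Hochberg adjustment over the 8 ratios computed. The size rested in part on Sham1, without which the difference was 0.20.

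The ratio of miR-29c-3p to miR-29a-3p, strands from different chromosomes, varied little within a group, with means of -4.33 ± 0.075 in Sham and -4.20 ± 0.055 in TAC (SD, n = 4 in each group). The difference was 0.12 (95% interval -0.031 to 0.27, exact permutation p = 0.0571, adjusted 0.114), with overlap. These strands differ at a single base, and the part of tags that fit both in this ratio was not tested. miR-29b-3p to miR-29c-3p differed by 0.26 (95% interval -0.096 to 0.94, exact permutation p = 0.2, adjusted 0.32), and by 0.10 without Sham1. Expressed as shares of the 3 guide strands, miR-29a-3p made up 93.3% ± 0.598 in Sham and 92.4% ± 0.128 in TAC, miR-29c-3p 4.65% ± 0.217 and 5.02% ± 0.190, and miR-29b-3p 2.02% ± 0.443 and 2.57% ± 0.195 (SD, n = 4 in each group).

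Relative to their guide, the miR-29b passenger strands were lower in TAC, though not after adjustment. The log2 ratio of the summed miR-29b 5p strands to miR-29b-3p was -2.10, -3.49, -3.63 and -3.44 in Sham and -3.74, -3.89, -3.85 and -3.89 in TAC. All TAC libraries lay below all Sham libraries, by 0.68 in the mean (95% interval -1.79 to -0.12, exact permutation p = 0.0286, adjusted 0.114). Without Sham1 the difference was -0.32. As a share of all miR-29b counts the 5p strands made up 10.7% ± 5.47 in Sham, with 18.9% in Sham1, and 6.50% ± 0.292 in TAC (SD, n = 4 in each group).

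For miR-29a the passenger share was smaller, 0.0266% ± 0.0131 in Sham and 0.00925% ± 0.00604 in TAC (SD, n = 4 in each group). The log2 ratio of miR-29a-5p to miR-29a-3p differed by -1.56 (95% interval -3.47 to 0.26, exact permutation p = 0.0571, adjusted 0.114), with overlap. For miR-29c the passenger share was 0.482% ± 0.124 and 0.400% ± 0.136 (SD, n = 4 in each group), and its log2 ratio differed by -0.29 (95% interval -1.15 to 0.72, exact permutation p = 0.343, adjusted 0.424). Between passenger strands of the same locus, miR-29a-5p to miR-29b-1-5p differed by -1.38 (95% interval -5.13 to 3.15, exact permutation p = 0.371) and miR-29c-5p to miR-29b-2-5p by 0.11 (95% interval -0.98 to 1.63, exact permutation p = 0.8), which turned to -0.16 without Sham1 and -0.12 without TAC3. None of the 8 ratios had an adjusted p below 0.05, and 4 had an unadjusted p of 0.0286 or 0.0571.

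**Figure D4:**
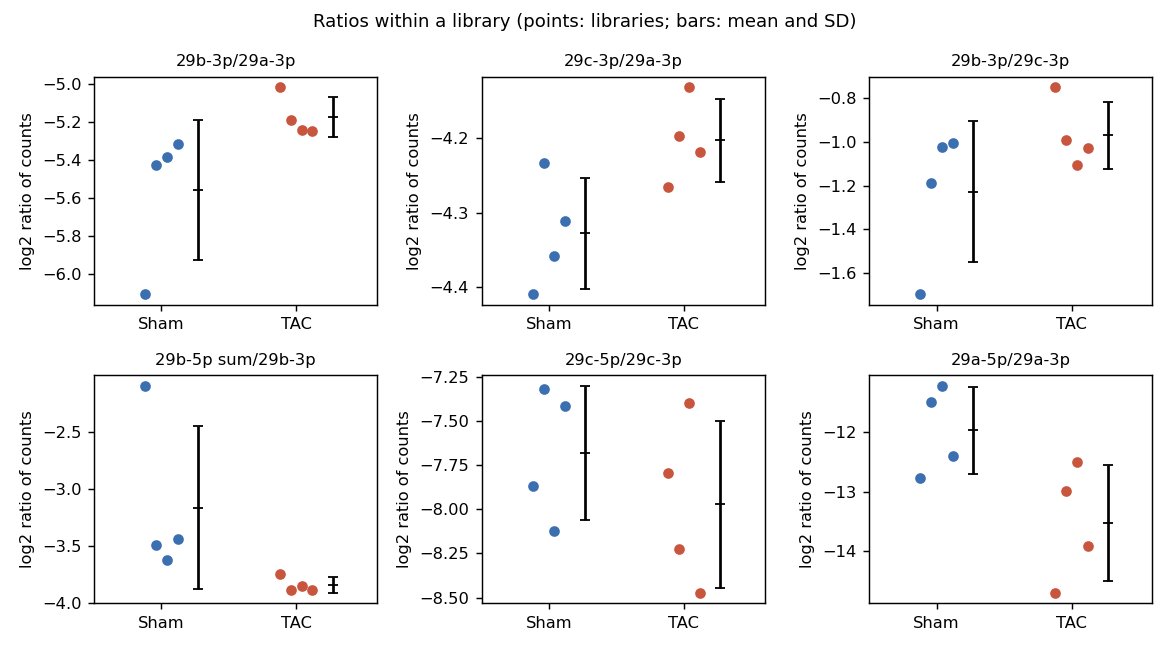
log2 ratio of the counts of 2 miR-29 strands within each library, 1 panel for each of 6 ratios, with 1 point for each library (blue Sham, red TAC) and a bar at the mean with its SD. In the ratio of miR-29b-3p to miR-29a-3p all TAC points lie above the Sham points, in the ratio of the miR-29b 5p sum to miR-29b-3p all lie below, and Sham1 (-6.10 and -2.10) stands apart from the other Sham libraries in both.

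Together the 3 guide strands held 1.99%, 1.29%, 1.44% and 1.23% of all miRNA counts in Sham and 1.301%, 1.18%, 1.04% and 1.04% in TAC. The mean share was 1.49% ± 0.348 in Sham and 1.14% ± 0.127 in TAC (SD, n = 4 in each group), with overlap. The TAC-minus-Sham difference of -0.35 percentage points was -0.18 without Sham1. In CPM this was 14855 ± 3479 and 11388 ± 1271, and the reference-scaled TAC mean was 21214 ± 2368 (SD, n = 4 in each group). The summed level was thus lower in TAC on 1 scale and higher on the other.

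The miRNAs whose levels followed each guide strand across the 8 libraries were ranked by the SD of the log2 ratio to it, over 222 other miRNAs with a mean above 100 counts. miR-29c-3p followed miR-29a-3p with an SD of 0.0899, the smallest of the 222, and then came miR-140-5p (0.108) and miR-339-3p (0.124), where the median SD was 0.385. For miR-29c-3p the nearest was likewise miR-29a-3p, then miR-181b-5p (0.127) and miR-133a-3p (0.131). For miR-29b-3p the nearest were miR-345-5p (0.0731), miR-30c-2-3p (0.0732) and miR-1198-5p (0.0971), and its family mates came at rank 62 (miR-29c-3p, SD 0.271) and rank 92 (miR-29a-3p, SD 0.324). Without Sham1 these ranks were 13 (SD 0.135) and 14 (SD 0.135), so the distance of miR-29b-3p from its mates lay largely in that library. The libraries share the depth and group split described above, and no p was computed for these SDs. miR-29a-3p and miR-29c-3p also differ at a single base, and the handling of tags that fit both is not given.

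Other miRNAs known for a part in cardiac fibrosis were read from the same edgeR fit. With reference scaling 6 of the 10 listed were higher in TAC at an adjusted p below 0.05, none was lower and 4 did not pass, beside 63.7% higher and 0.897% lower of all tested miRNAs. The share of the list that rose was thus near the background, and its median log2 fold change was 0.60 beside 0.61 over all tested miRNAs. With a fold change above 1.7 in addition there were 3 of the 10, beside 36.8% of all tested miRNAs. They were miR-24-3p (1.12, SE 0.15, adjusted p = 0.000267), miR-155-5p (1.06, SE 0.13, adjusted p = 0.000163), a miRNA of immune cells, and miR-133a-3p (0.79, SE 0.18, adjusted p = 0.00444), a muscle miRNA that also stands in the cardiomyocyte list. The smallest value was that of miR-101a-3p (0.0061, adjusted p = 0.958). By library totals the same list had 0 higher and 2 lower, beside 1.35% and 20.6% of all tested miRNAs, and a median of -0.30 beside -0.29. With TMM it had 0 higher and 1 lower, beside 4.93% and 8.52%, and a median of -0.09 beside -0.08. DESeq2 with its own size factors had 1 higher and 1 lower at an adjusted p below 0.05, beside 8.52% and 9.87%. At an unadjusted p below 0.05 edgeR had 0 higher and 3 lower with library totals, 2 higher and 1 lower with TMM, and 7 higher and 0 lower with reference scaling. The share of all tested miRNAs at this unadjusted threshold was not counted.

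The guide seed pairs with TGGTGCT in an mRNA, and a following A opposite base 1 gives TGGTGCTA, which contains it. The longest annotated 3′ UTR of each gene (GENCODE vM21, GRCm38) was searched on the transcript strand. Of 15 listed genes, chosen as matrix genes known to be miR-29 targets together with Rbfox2, the splicing factor that the study followed, 12 held TGGTGCT (80%) and 5 held it several times (33.3%), in UTRs with a median length of 1188 bases. Of 20997 protein-coding genes 2755 held it (13.1%) and 427 several times (2.03%), with a median length of 962 bases. Col1a2, Nid1 and Sparc had no match in this window. The matrix genes were chosen as known targets and Rbfox2 because the study followed it, so the share is a description.

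Sites from 3 matrix genes and Rbfox2 are shown, each with the match in capitals, and an A opposite base 1 also in capitals.
Col1a1, chain of type I collagen, exon 51, chr11:94952523-94952545 (plus strand): gtgggaaggaatttcTGGTGCTA
Col3a1, type III collagen, exon 51, chr1:45348967-45348989 (plus strand): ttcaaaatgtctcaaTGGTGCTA
Eln, elastin, exon 37, chr5:134703736-134703758 (minus strand): cgacctcatcaacgtTGGTGCTA
Rbfox2, exon 14, chr15:77083665-77083687 (minus strand): ttaccaaagtggatcTGGTGCTg

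The 3 guide strands hold the same seed and so have the same matches at these sites. Col5a1 held 4 matches, Col5a3 and Eln 3 each, and Col4a2 and Fbn1 2 each. The levels of these mRNAs were not analysed here, and a match describes the sequence alone.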

How the data were processed

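The authors deposited, for each of 8 libraries, whole-number tag counts per mature miRNA without normalization. Per the submitters' processing notes, StringTie 1.3.1 and mm10 were named, with no role. The aligner, the miRNA reference and the handling of tags that fit several miRNAs, which could move tags between miR-29a-3p and miR-29c-3p, are not given in the sources used here. Counts were tested with edgeR 4.0.16 (R 4.3.3, quasi-likelihood test, group as the only term) over 223 miRNAs with a mean above 100 counts, on library size times 0.537 in TAC, with Benjamini-Hochberg adjustment. For that factor the mean CPM in TAC was divided by that in Sham for each reference miRNA, and the geometric mean was taken. Standard errors divide the log2 fold change by the root of edgeR's F, and the biological coefficient of variation was 0.255. Ratios used a pseudocount of 0.5 counts, and intervals invert the exact permutation test at 95%. P-values measure the spread between the sequenced libraries, and count limits cover counting error only. With the single factor, edgeR took that factor as known. Its p-values and standard errors then leave out the spread of the reference miRNAs between libraries.

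Named were all members, both references, the 3 miRNAs nearest to each guide strand, and of the fibrosis list those called and the highest and lowest. The members and lists were chosen with earlier results of these data known. Alternatives were TMM, library totals, a reference factor for each library, DESeq2 1.42.0, other filters, left-out libraries and a replicate block. The edgeR fits were also run on simulated counts with changes in both directions and unchanged reference miRNAs. Such counts hold no shift of all miRNAs, so they cannot decide between the scalings. Python 3.11.15, numpy 2.4.6, pandas 2.3.3 and matplotlib 3.10.9 made the other values and the plots. Sequences are from RefSeq (GRCm38.p6) and GENCODE vM21.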

Additional observations from a re-analysis of the deposited data

Results flagged for a closer look

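In 4 of 32 groups of 4 libraries examined, 1 library stood apart from the other 3 by Dixon's ratio, the gap to the nearest library over the range of the group, past Dixon's critical value at 95%. Chance gives about 1 in 20 such groups. The level of miR-29b-2-5p in Sham1 (63.5 CPM against 22.99 to 25.96 in the other Sham libraries) had a ratio of 0.9268. The log2 ratio of the miR-29b 5p strands to miR-29b-3p in Sham1 (-2.10) had 0.8815, and the log2 ratio of miR-29b-3p to miR-29a-3p in Sham1 (-6.10) had 0.8649. These 3 share the library and in part the strands. The level of miR-29b-1-5p in Sham2 had 0.8504, and it rests on 9 counts against 0, 1 and 1.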

How the results depend on the processing

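The log2 fold change of miR-29a-3p turned to -0.18 with TMM, -0.40 with library totals and -0.15 with DESeq2's own size factors, and stayed at 0.41 (adjusted p = 0.209) with a reference factor for each library. miR-29c-3p turned to -0.053, -0.27 and -0.016, and stood at 0.56 (adjusted p = 0.0923) with a factor for each library. miR-29b-3p kept its sign but did not pass with TMM (0.23), library totals (0.021) or DESeq2's own size factors (0.27), and miR-29b-2-5p turned to -0.55, -0.77 and -0.53, and to -0.018 with a factor for each library. miR-29c-5p turned to -0.52 with library totals and -0.23 with TMM, in fits added after seeing the data, as were those of miR-29a-5p by library totals and TMM and the likeness without Sham1. The reversals with TMM, library totals and DESeq2's own size factors follow the scaling, which moves all values nearly together. With a reference factor for each library the members moved by unequal amounts. On the main scale miR-29b-2-5p also turned without Sham2 (-0.11), Sham3 (-0.074) or TAC1 (-0.037). DESeq2 with reference scaling and both other filters kept the direction and side of the threshold of all 4 tested members. With a library left out the values ran from 0.35 to 0.79 for miR-29a-3p, 0.79 to 1.04 for miR-29b-3p, 0.51 to 0.89 for miR-29c-3p, -0.11 to 0.72 for miR-29b-2-5p, and -2.20 to -1.64 for miR-29a-5p by library totals.

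Called higher were 82 of 223 miRNAs, but 3 with TMM, 1 with library totals and 5 with DESeq2's own size factors. With no fold required 142 of the 223 were called higher, and with a library left out 59 to 106 miRNAs. Fits with other filters tested more miRNAs and called 122 of 409 (mean above 10 counts) and 127 of 695 (no filter). Called lower were 2, but 10 with TMM, 23 with library totals and 9 with DESeq2's own size factors, and 1 to 2 with a library left out. The log2 ratio of the mean summed guide level was -0.38 by library totals and 0.51 by reference scaling, and its share difference ran from -0.43 to -0.18 percentage points. The 8 ratios kept their side of the threshold with a pseudocount of 1. With a library left out, as values with no test, miR-29b-3p to miR-29a-3p ran from 0.20 to 0.46, miR-29c-3p to miR-29a-3p from 0.097 to 0.16, miR-29b-3p to miR-29c-3p from 0.10 to 0.33, miR-29a-5p to miR-29a-3p from -1.90 to -1.17, miR-29c-5p to miR-29c-3p from -0.48 to -0.13, the 29b 5p sum to miR-29b-3p from -0.83 to -0.32, miR-29a-5p to miR-29b-1-5p from -2.25 to -0.63 and miR-29c-5p to miR-29b-2-5p from -0.16 to 0.35.

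The methods speak of pairs of sham and TAC mice, and replicate numbers are shared by the groups. What made a pair, and which libraries form one, is not given in the sources used here. Same-numbered libraries deviated together with r of 0.163, -0.373, 0.316 and -0.220. These values cannot show whether the libraries are pairs, and the main tests took them as unpaired. With the replicate block the log2 fold changes were 0.52 for miR-29a-3p, 0.90 for miR-29b-3p, 0.64 for miR-29c-3p and 0.24 for miR-29b-2-5p, on the same side of the threshold as without it. The smallest exact p that the block allows for a ratio is 0.125, so the exact permutation p of 0.0286 given for ratios holds for unpaired libraries only. Depth limits miR-29a-5p, miR-29b-1-5p and miR-29c-5p, whose mean counts over the 8 libraries were 11.9, 2.25 and 15.3.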
